A study of Drosophila melanogaster with 6 samples.

Results

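Gcn5 peaks on the heterochromatic and unplaced sequences of the Drosophila melanogaster genome are described here in 3 chromatin immunoprecipitation and sequencing (ChIP-seq) libraries. They are the peaks whose sequence name in build dm3 ends in Het, or is U or Uextra. The rule gave 945 of the 14386 peaks in the 3 lists. There were 420 of 4228 peaks in Kc cells with CP190 RNAi, 447 of 5096 in Kc cells with GFP RNAi and 78 of 5062 in S2 cells with GFP RNAi. The members lay on 2LHet, 2RHet, 3LHet, 3RHet, XHet, U and Uextra.

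Kc and S2 are lines of cultured cells derived from Drosophila embryos. Per the labels, both were grown in Schneider's medium with serum, and the dose of double-stranded RNA was 90 µg for every 6000000 cells. The RNA was directed against CP190 in the first Kc library and against GFP, the control target, in the second Kc library and in the S2 library. Crosslinked chromatin was precipitated with a polyclonal antibody to Gcn5 raised in rabbit, at 5 µg a sample. Each condition had 1 library, so no difference between libraries has a replicate check and no p-value is given. How far CP190 was depleted cannot be read from the peak lists.

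Gcn5 is a histone acetyltransferase of the SAGA and ATAC coactivator complexes and is found mostly at promoters and enhancers of active genes. CP190 is a zinc-finger and BTB-domain protein that binds insulators and many promoters. Heterochromatin surrounds the centromeres. It is rich in transposons and satellite repeats, is packed with methylated histone H3 and the HP1 protein, and holds few but often active genes. In dm3, the Het sequences are heterochromatic scaffolds assigned to a chromosome arm. U and Uextra join scaffolds that could not be placed, with Uextra made of the short and less certain ones, so distances along U and Uextra are not distances on a chromosome. Reads from repeats can match several places, and the sources used here do not give how such reads were handled.

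The number of members differed between the cell lines mainly on U and Uextra. Uextra held 340 peaks with CP190 RNAi and 346 with GFP RNAi in Kc cells, against 17 in S2 cells. U held 43 peaks and 55 peaks in the same Kc libraries, against 4 in S2 cells. Both Kc libraries were thus far above S2 on the unplaced sequences, and close to each other on Uextra. The Het sequences together held 37 peaks with CP190 RNAi and 46 with GFP RNAi in Kc cells, and 57 in S2 cells. S2 was highest on 2RHet, with 24 peaks against 9 in each Kc library. Kc cells were higher on 3LHet, with 18 peaks after CP190 RNAi and 22 after GFP RNAi, against 14 in S2 cells. On 3RHet there were 4 Kc peaks with CP190 RNAi and 10 with GFP RNAi, and 12 S2 peaks. 2LHet held 5, 4 and 4 peaks and XHet 1, 1 and 3 peaks in Kc CP190 RNAi, Kc GFP RNAi and S2 cells, too few to order the libraries.

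**Figure D1:**
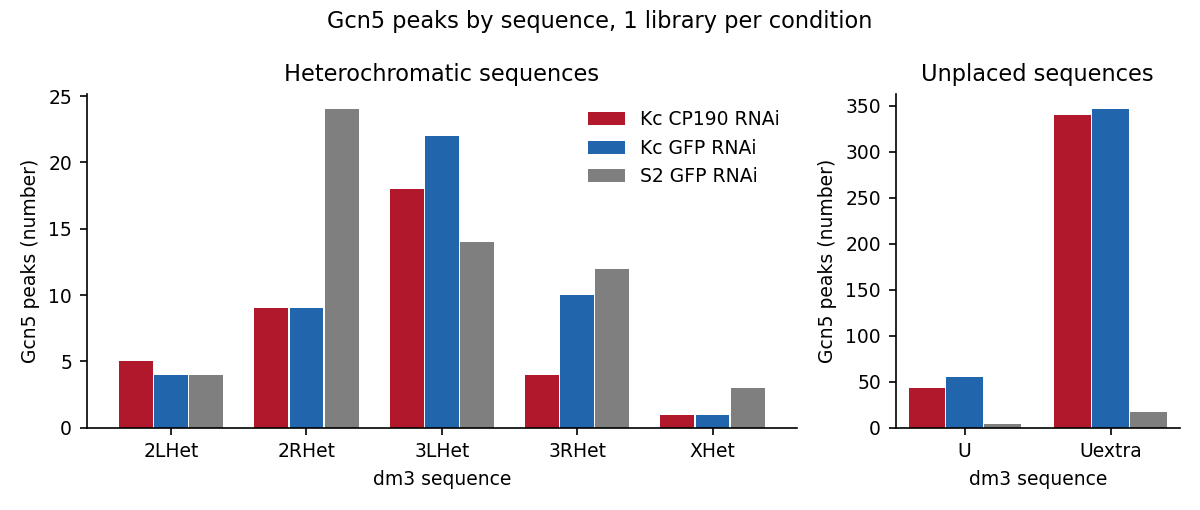
Number of Gcn5 peaks (y axis) on each heterochromatic sequence (left) and on U and Uextra (right) in the 3 libraries; bars are counts from 1 library each, and the panels have separate scales. Uextra holds 340 and 346 peaks in the Kc libraries and 17 in S2 cells, and 2RHet holds 9, 9 and 24.

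Members made up 9.93% of the Kc CP190 RNAi list (exact 95% binomial interval 9.05 to 10.9%), 8.77% of the Kc GFP RNAi list (8.01 to 9.58%) and 1.54% of the S2 list (1.22 to 1.92%). All intervals here are exact (Clopper-Pearson), and they cover counting error only. Het peaks alone were 0.875%, 0.903% and 1.13% of the lists, with overlapping intervals, so U and Uextra carried the contrast between the lines. Measured over the stretch of Uextra that ends with its last peak in any list, peaks covered 1.14% of bases after CP190 RNAi, 1.16% after GFP RNAi in Kc cells and 0.0275% in S2 cells. On the arms (X, 2L, 2R, 3L, 3R and 4) the same shares were 5.20%, 6.25% and 6.28%. The S2 list names its sequences without the prefix used in both Kc lists. A difference in processing between the lists and a difference between the cell lines cannot be told apart.

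The members were narrow in Kc cells, and those on Uextra were narrower still in S2 cells. Their median width was 949 bp after CP190 RNAi (quartiles 816 and 1105 bp) and 964 bp after GFP RNAi (801.5 and 1131 bp), against 1368 bp and 1314 bp on the arms in the same lists. Of the Kc GFP RNAi members, 63.1% fell in the narrowest of 5 equal width bins of their list, against 15.9% of the peaks on the arms. The S2 peaks on Uextra had a median width of 437 bp and a range of 359 to 705 bp. All 17 were in the narrowest width bin of the S2 list. Het peaks were wider, with medians of 1063 bp after CP190 RNAi and 1141 bp after GFP RNAi in Kc cells, and 1300 bp in S2 cells.

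**Figure D2:**
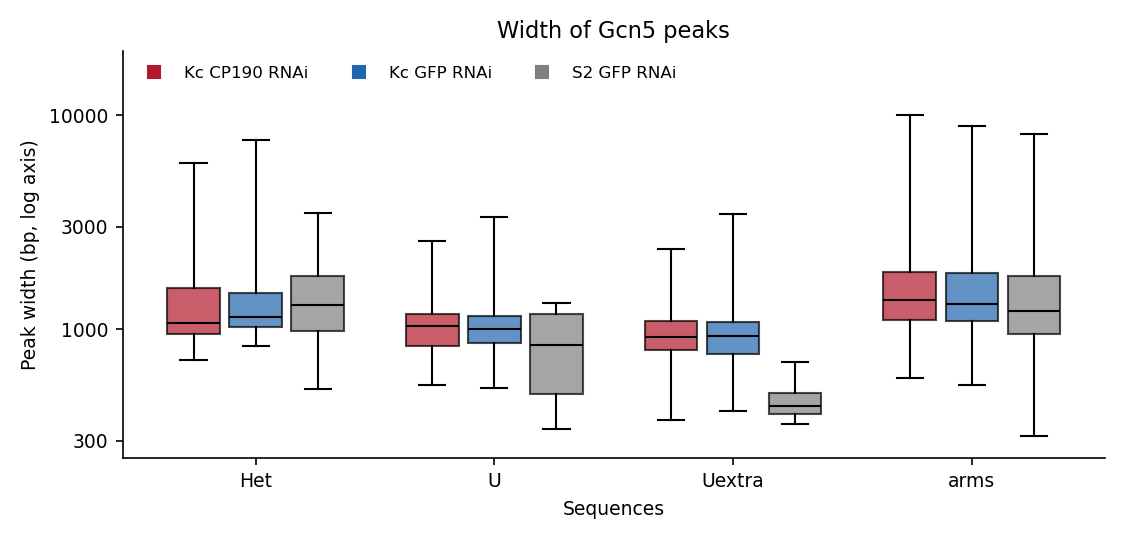
Width of Gcn5 peaks in bp (log axis) by sequence class and library; boxes show the quartiles, the line the median, and whiskers the narrowest and widest peak. The median on Uextra is 921.5 bp and 927 bp in the Kc libraries and 437 bp in S2 cells, against 1211 bp or more on the arms.

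Peaks on these sequences were not confined to the bottom of the lists. The authors' score was used here to rank peaks within a list. A rank is given as a percentage of the list counted from its highest score. The median member stood at 54.7% of the Kc CP190 RNAi list, 56.5% of the Kc GFP RNAi list and 49.5% of the S2 list. Of the 500 highest-scored peaks, 48 were members after CP190 RNAi (9.60%, 7.16 to 12.5%), 28 after GFP RNAi in Kc cells (5.60%, 3.75 to 7.99%) and 6 in S2 cells (1.20%, 0.442 to 2.59%). After CP190 RNAi the interval of the share at the top held the 9.93% of the whole list, and after GFP RNAi the share at the top was below the 8.77% of its list. On the arms wider peaks tended to score higher (Spearman's rho 0.40 across 3808 CP190 RNAi peaks and 0.30 across 4649 GFP RNAi peaks). On U and Uextra this relation was weaker, at 0.16 across 383 peaks and 0.11 across 401. These are correlations across peaks of 1 library, which share its depth and background.

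The strongest peak of U and Uextra after CP190 RNAi lay at Uextra 697923 to 699712 and ranked 4 of the whole list. The GFP RNAi peak over it, at 697959 to 699800, ranked 100, and no S2 peak overlapped it. The strongest peak on U, at 9150901 to 9151932, ranked 12 after CP190 RNAi. It had a GFP RNAi peak that ranked 119 and an S2 peak that ranked 939. The site at Uextra 18119021 to 18120090 ranked 57 after CP190 RNAi and 58 after GFP RNAi in Kc cells, and 616 in S2 cells. All 3 sites were called in both Kc libraries, and 2 of them also in S2 cells. Other strong peaks after CP190 RNAi were at Uextra 3204410 to 3205069, which ranked 19 and had a peak in both other lists, and at Uextra 27872117 to 27873028 and 2900611 to 2901058, which ranked 39 and 43 and had a Kc control peak but none in S2 cells. Ranks are from lists of different lengths and do not measure a change in binding.

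The first comparison asks how many Gcn5 sites of Kc cells were still called after CP190 RNAi. Over all members, 155 of 447 control peaks had no CP190 RNAi peak, a share of 34.7% (30.3 to 39.3%), against 42.2% of the whole control list. On the arms the share was 43.0% (41.5 to 44.4%). By class it was 33.8% of 346 peaks on Uextra (28.8 to 39.1%), 34.5% of 55 on U (22.2 to 48.6%) and 41.3% of 46 on Het sequences (27.0 to 56.8%). The Het interval holds both the arm share and the Uextra share. Missing members lay a median of 34.6 kb from the nearest CP190 RNAi peak on their sequence, and 5 of the 155 lay within 1 kb of one. That distance is near the spacing of the members themselves, a median of 29.8 kb in both Kc lists. Of the 155, 136 were on U and Uextra, where distances are not distances on a chromosome. Among control peaks that scored 100 or higher, 19.4% of members and 39.9% of arm peaks were missing. With that threshold in both lists, 38.4% of members and 55.9% of arm peaks had no CP190 RNAi peak that scored 100 or higher. CP190 RNAi peaks under 100 counted as absent there, so the rule raises both shares by construction.

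Members are narrower than peaks on the arms, and on the arms narrow control peaks were missing more often. When the arm peaks were weighted to the mix of score and width bins of the members, 69.8% of them were missing, against the 34.7% of members. For U and Uextra alone the weighted arm share was 71.7%, against 33.9%. For the Het sequences the 2 shares were closer, at 52.6% for the weighted arms and 41.3% for the Het peaks. In the narrowest width bin 39.0% of 282 members were missing (33.3 to 45.0%), against 82.4% of 738 peaks on the arms (79.4 to 85.1%). In the widest bin, 7 of 16 members and 17.7% of 1003 arm peaks were missing.

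Among the members, the control peaks without a CP190 RNAi peak were mostly weak ones, whereas on the arms the missing share varied less with score. In the lowest of 5 equal score bins of the control list, 65.6% of 125 members were missing (56.6 to 73.9%), against 53.6% of the arm peaks (50.3 to 56.9%). In the next bins the member shares were 42.5% and 26.1% (17.5 to 36.3% for the higher bin), against 42.4% and 40.1% (37.0 to 43.4%) on the arms. In the fourth bin 5 of 86 members were missing (5.81%, 1.91 to 13.0%), against 36.3% of 933 arm peaks (33.2 to 39.5%). In the highest bin 10 of 64 members were missing (15.6%, 7.76 to 26.9%), against 42.7% of 955 arm peaks (39.6 to 45.9%). The intervals of members and arms did not overlap in the 3 highest bins.

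The missing peaks of the highest bin were mostly among its strongest. Of the 28 members among the 500 highest-scored control peaks, 9 were missing (32.1%, 15.9 to 52.4%), and of the 35 among the next 500, 1 was missing (2.86%, 0.0723 to 14.9%). On the arms the same shares were 43.2% and 42.7%. All 4 Het peaks among the top 500 were missing, against 5 of 24 on U and Uextra. The highest-scored was at 3RHet 1523687 to 1524856, ranked 37 in the control list, and its nearest CP190 RNAi peak was 298652 bp away. It had no S2 peak. The site at 2RHet 369557 to 370924 ranked 73 in Kc control cells and 42 in S2 cells, where it was the strongest member, and had no CP190 RNAi peak within 100234 bp. The site at 3LHet 1285191 to 1286313 ranked 216 and was called in the Kc control alone. On Uextra the strongest missing site, at 25090433 to 25091114, ranked 78, and on U it lay at 5687771 to 5688767 and ranked 189. Neither had an S2 peak.

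**Figure D3:**
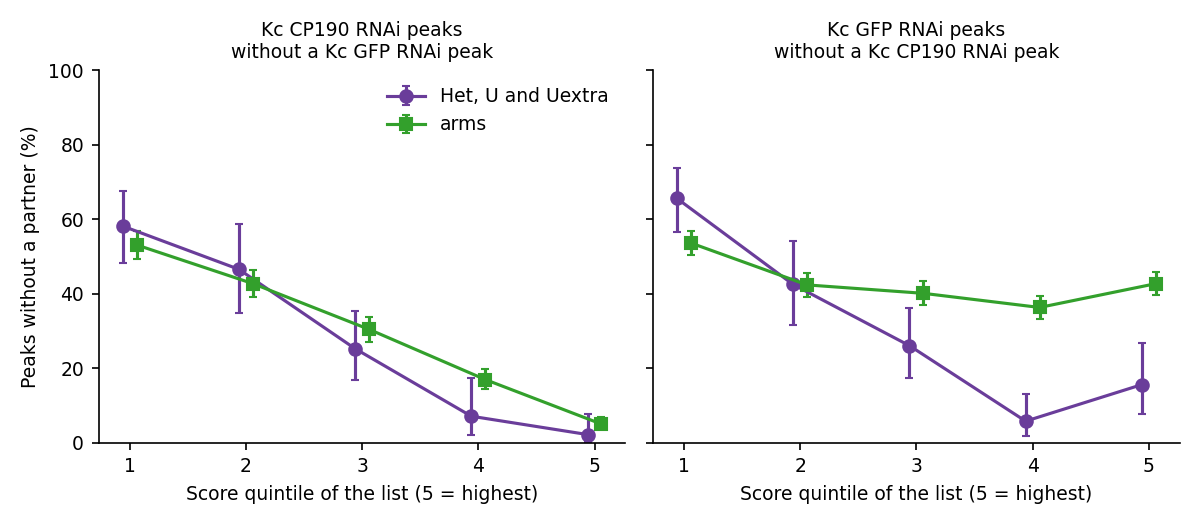
Share of peaks without a partner in the other Kc list (y axis, %) by score bin of their own list (x axis, 1 lowest, 5 highest), for Het, U and Uextra peaks (circles) and arm peaks (squares); left, Kc CP190 RNAi peaks, right, Kc GFP RNAi peaks; bars are exact 95% binomial intervals. On the right the members are at 5.81% and 15.6% in the upper bins and the arms are at 36.3% and 42.7%.

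By Het sequence, 6 of 10 control peaks were missing on 3RHet (26.2 to 87.8%), 7 of 22 on 3LHet (13.9 to 54.9%) and 4 of 9 on 2RHet (13.7 to 78.8%). On 2LHet it was 1 of 4 and on XHet 1 of 1. The intervals of all these sequences overlap and hold the 42.2% of the whole control list, so they do not order the sequences. The widest control member, at 3RHet 1390825 to 1398480, was 7656 bp wide, had a low score (rank 4744) and was called in neither other list. The widest control peak on Uextra, at 12243555 to 12247015 and 3461 bp wide, was also called in the Kc control alone. After CP190 RNAi the widest member was at 3RHet 2448473 to 2454443, with 5971 bp, and it had a Kc control peak. The widest CP190 RNAi peak on Uextra, at 10239794 to 10242153, was 2360 bp wide and was called in all 3 lists.

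In the opposite direction, 127 of 420 CP190 RNAi members had no control peak, a share of 30.2% (25.9 to 34.9%), against 29.6% of the whole CP190 RNAi list, so the members were near the background. Among CP190 RNAi peaks that scored 100 or higher the share was 11.2% of members and 16.0% of arm peaks. With that threshold in both lists, where control peaks under 100 counted as absent, it was 22.4% of members and 35.7% of arm peaks. The direction of the small difference from the arms thus changed with the threshold. These peaks were weak, with a median position at 80.4% of the list, against 41.7% for the members with a control peak. In the lowest score bin 58.2% of 110 members lacked a control peak (48.4 to 67.5%), and in the highest 2 of 90 (2.22%, 0.270 to 7.80%). On the arms the same bins gave 53.1% and 5.03%. The strongest of them was at 2RHet 3179053 to 3183866, 4814 bp wide and ranked 163, and an S2 peak overlapped 13.6% of its width. The next, at Uextra 25720804 to 25721852 and at U 9340647 to 9342294, ranked 571 and 1031 and were called in no other list.

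Where both Kc libraries called a member, the peaks matched closely. The 293 overlapping pairs had centres a median of 41 bp apart (quartiles 14.5 and 86.5 bp), and 98.0% had centres within 250 bp. On the arms the 2708 pairs had centres a median of 66 bp apart, with 82.5% within 250 bp. Paired peaks were also narrower among the members. Their median widths were 966 bp (CP190 RNAi) and 979 bp (control), against 1407 bp and 1552.5 bp on the arms. Narrower overlapping peaks leave less room between centres, so these distances do not show a closer match than on the arms. The CP190 RNAi peak was the wider one in 141 of the 293 member pairs, against 790 of the 2708 pairs on the arms. On the arms the CP190 RNAi peak lay wholly inside the control peak in 1216 pairs and the reverse held in 305, and among the members these counts were 87 and 78. Scores of paired peaks were ordered more alike on these sequences. Spearman's rho was 0.65 across the 293 member pairs and 0.36 across the pairs on the arms. For widths the order was reversed, with 0.73 across the member pairs and 0.78 on the arms. The pairs of 1 comparison share their libraries and their depth, so these correlations are descriptions. The depth of each library is unknown.

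The second comparison asks which Gcn5 sites were common to Kc and S2 cells under GFP RNAi. Only 41 of the 447 Kc control members had an S2 peak (9.17%, 6.66 to 12.2%), against 59.7% of the whole Kc control list. The Het sequences differed from the unplaced ones. Of the 46 Kc control peaks on Het sequences, 24 overlapped a peak of S2 cells (52.2%, 36.9 to 67.1%), as did 17 of 401 on U and Uextra (4.24%, 2.49 to 6.70%), against 64.6% on the arms. With reciprocal overlap of 50% the share was 5.15% of all members and 58.8% of arm peaks. Weighted to the score and width bins of the U and Uextra peaks, the share on the arms was 68.5%. The contrast was also present among strong peaks. In the highest score bin of the Kc control list 51 of 64 members had no S2 peak (79.7%, 67.8 to 88.7%), against 8.48% of 955 arm peaks (6.79 to 10.4%). Of the CP190 RNAi members, 35 of 420 had an S2 peak (8.33%, 5.87 to 11.4%), against 44.6% of the whole CP190 RNAi list. When S2 had to cover 50% of the CP190 RNAi peak, this share was 5.00% of members and 46.6% of arm peaks. The unplaced Kc control peaks without an S2 peak lay a median of 515 kb from the nearest one along U or Uextra, where S2 had only 21 peaks.

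Counted from S2, most of the few unplaced peaks were Kc peaks as well. Of the 21 S2 peaks on U and Uextra, 17 overlapped a Kc control peak (81.0%, 58.1 to 94.6%), and the same 17 overlapped a CP190 RNAi peak. Over all 78 S2 members, 41 had a Kc control peak (52.6%, 40.9 to 64.0%), against 60.4% of the whole S2 list. With reciprocal overlap of 50% this share was 29.5% of members and 54.8% of arm peaks. A CP190 RNAi peak was found over 35 of them (44.9%, 33.6 to 56.6%), against 37.0% of the whole S2 list. On Het sequences 24 of 57 S2 peaks had a Kc control peak (42.1%, 29.1 to 55.9%) and 18 had a CP190 RNAi peak (31.6%, 19.9 to 45.2%). The lowest share was on 2RHet, with 7 of 24 in the Kc control list, and 3LHet had 9 of 14, with intervals that overlap (12.6 to 51.1% and 35.1 to 87.2%).

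Among the 500 highest-scored S2 peaks, 4 of the 6 members were Het peaks, as were 57 of all 78 S2 members. The other 2 were on Uextra and ranked 448 and 464. The peak at 2RHet 369632 to 370630 ranked 42 and was followed by 3LHet 2395762 to 2399243, ranked 262 and the widest S2 member at 3482 bp, and by 3LHet 600107 to 602009, ranked 355. Both 3LHet sites were called in all 3 libraries. The strongest S2 members without any Kc peak lay at 3RHet 2106961 to 2107540, ranked 712, at 2RHet 196651 to 199986, ranked 998, and at 2RHet 1334187 to 1337242, ranked 1153. The 2RHet site at 1334187 lay 862010 bp from the nearest Kc control peak.

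Merging overlapping peaks of the 3 lists gave 608 sites on these sequences. The largest class was called in both Kc libraries and not in S2 cells, with 260 sites (42.8%, 38.8 to 46.8%), against 14.7% of the 7364 sites on the arms. Another 146 sites were called in the Kc control alone (24.0%), 124 after CP190 RNAi alone (20.4%) and 34 in S2 cells alone (5.59%). On the arms these classes held 7.46%, 11.3% and 22.9%. The Kc control and S2 shared 9 sites that CP190 RNAi lacked (1.48%, 0.679 to 2.79%), against 19.2% of the sites on the arms. All 9 were on Het sequences. The Het sequences were near the arms in some classes only. All 3 lists called 15 of their 86 sites (17.4%, 10.1 to 27.1%), against 20.8% on the arms. The class of both Kc lists without S2 held 14.0% of Het sites, against 14.7%. S2 cells alone held 30 Het sites (34.9%, 24.9 to 45.9%), above the 22.9% on the arms. The 9 sites of the Kc control and S2 were 10.5% of Het sites (4.90 to 18.9%), below the 19.2% on the arms.

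**Figure D4:**
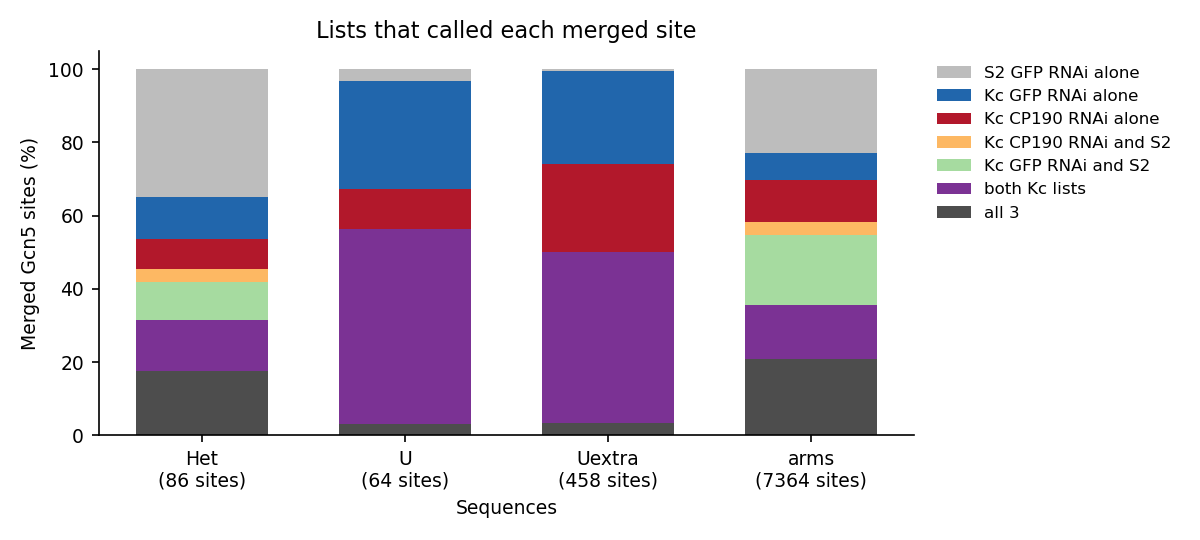
Share of merged Gcn5 sites (y axis, %) by the lists that called them, for Het, U, Uextra and the arms (x axis, with the number of sites); 1 library per list. Sites of both Kc lists without S2 make up 53.1% of U and 46.7% of Uextra, against 14.0% of Het and 14.7% of the arms.

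The fate of the S2-shared sites after CP190 RNAi differed in direction between the unplaced sequences and the arms. On U and Uextra none of the 17 Kc control peaks with an S2 peak was missing after CP190 RNAi. The exact interval for 0 of 17 reaches 19.5%, and a limit of 3 counts in 17 is 17.6%. Of the 384 without an S2 peak 35.4% were missing (30.6 to 40.4%). On the arms 48.2% of 3002 S2-shared peaks and 33.3% of 1647 others were missing. On Het sequences 9 of 24 S2-shared peaks (37.5%, 18.8 to 59.4%) and 10 of 22 others (45.5%, 24.4 to 67.8%) were missing, which cannot be told apart at these counts. The 17 unplaced peaks were strong in Kc control cells, with a median position at 17.2% of the list, against 56.8% for the 384 others. Score was not held equal in this split, and the difference in direction was not tested.

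The sites called in all 3 libraries had a different shape on the 2 kinds of sequence. On U and Uextra the 17 sites had median widths of 1065 bp after CP190 RNAi and 1094 bp after GFP RNAi in Kc cells, against 437 bp in S2 cells. The S2 peak was the narrower one at all 17, and it lay wholly inside the Kc peak in both comparisons. On the arms the S2 peak was narrower than the Kc control peak in 1702 of 3071 overlapping pairs, and lay wholly inside it in 1165. Against the CP190 RNAi peaks the arm counts were 780 and 484 of 1888 pairs. The S2 list also reached narrower widths on the arms, with a minimum of 316 bp, against 592 bp after CP190 RNAi and 549 bp after GFP RNAi. On Het sequences the 15 sites had medians of 1074 bp and 1235 bp in the Kc libraries, against 1575 bp in S2 cells, and the S2 peak was narrower than the Kc control peak at 5 of 15. After CP190 RNAi 14 of the 17 unplaced sites were in the highest of 5 score bins, as were 10 in the Kc control list and 5 in the S2 list. Among them, Uextra 22164174 to 22165269 ranked 62, 364 and 448 in Kc CP190 RNAi, Kc GFP RNAi and S2 cells. Uextra 3080082 to 3081768 ranked 276, 1550 and 464. Uextra 12698442 to 12699574 ranked 404, 2292 and 4587.

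**Figure D5:**
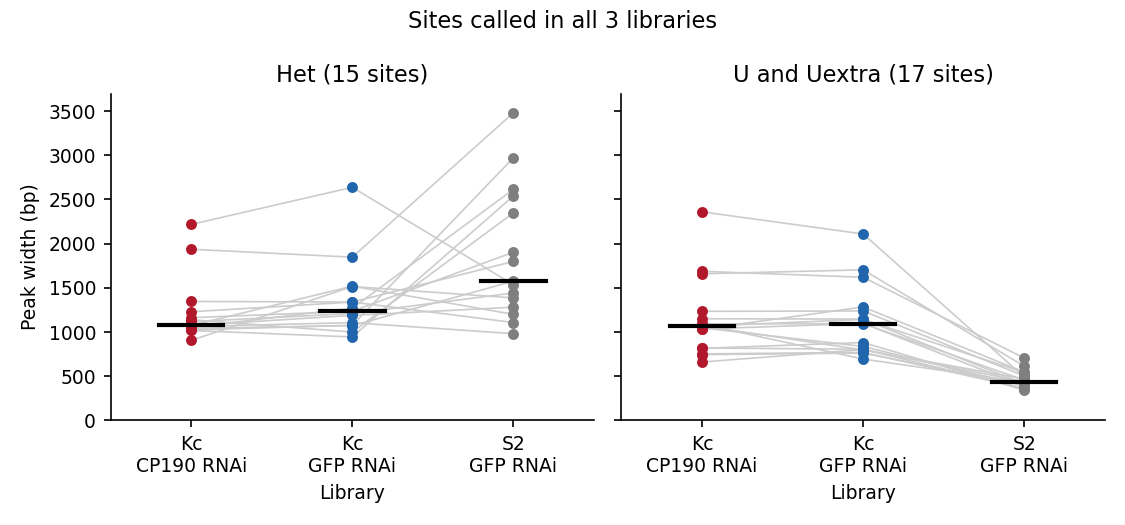
Width in bp (y axis) of the Gcn5 peak in each library (x axis) at the Het sites (left) and the U and Uextra sites (right) called in all 3 libraries; points are sites, grey lines join 1 site, and black bars are medians. At all 17 U and Uextra sites the S2 peak is narrower than both Kc peaks, with a median of 437 bp against 1065 and 1094 bp.

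Members were spread thinly. The median gap to the nearest peak on the same sequence was 29.8 kb for the members of both Kc lists, against 4.45 kb after CP190 RNAi and 5.65 kb after GFP RNAi on the arms. A neighbour within 5 kb was found for 11.7% of CP190 RNAi members, 12.1% of Kc GFP RNAi members and 21.8% of S2 members. On the arms it was 53.2%, 45.9% and 49.5%. Most Kc members are on U and Uextra, where gaps run along joined scaffolds and are not distances on a chromosome. On Het sequences alone the median gaps were 27.5, 35.0 and 18.4 kb in Kc CP190 RNAi, Kc GFP RNAi and S2 cells. There 22.2%, 4.44% and 29.8% of peaks had a neighbour within 5 kb. All 17 S2 members with one were Het peaks. In Kc cells no run of members within 5 kb held more than 3 peaks. The Kc control runs of 3 at U 2191600 to 2198865 and at Uextra 28721549 to 28725464 had no CP190 RNAi peak over any of their peaks. The run of 3 at Uextra 28543911 to 28552254 had one over 2 of its peaks, and the run of 3 at Uextra 7118046 to 7121283 had one over 1. After CP190 RNAi the run of 3 at Uextra 15270046 to 15275312 had a Kc control peak over 1 of its peaks. S2 cells had the longest run, with 4 peaks at 3LHet 592773 to 607117, of which 3 had a peak in both Kc lists.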

How the data were processed

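Each library has 1 deposited peak list, which gives the place of every peak and a score for it. The score is the authors' own, as deposited, on a scale the files do not state. It was ranked and binned only within its list. The exception is the threshold of 100, which was set at the same value in every list. It kept 2343 of 4228 Kc CP190 RNAi peaks, 3340 of 5096 Kc GFP RNAi peaks and 3369 of 5062 S2 peaks. It need not mean the same strength in each list. Per the submitters' processing notes, Bowtie, MACS, bedtools and HOMER were used on build dm3. The sources used here do not give versions, thresholds or the use of input, and the 3 input libraries were not analysed here. The lists hold no read counts, so depth is unknown.

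The prefix of the Kc names was removed. Positions are 1-based on dm3. Peaks overlapping by at least 1 bp were shared. Score and width bins are quintiles of the whole list. Shares carry Clopper-Pearson intervals at 95% (scipy 1.17.1, pandas 2.3.3, Python 3.11.15). The overlap step was run on the Kc control list with a random part of its peaks removed and the rest moved by less than their width. Kept peaks had to overlap in this setting, so it checks the code and not the sharing of real peaks. Named peaks are the 3 highest-scored and the widest per class and list, and the 3 highest-scored with and without a partner per pair of lists. They also include the unplaced sites of all 3 lists and the longest runs. The windows of rank and the split by S2 state were chosen after values were seen. The members and comparisons were chosen with earlier results of these data known. No dm3 genome or annotation was used here, so no gene is named and no sequence is printed.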

Additional observations from a re-analysis of the deposited data

How the results depend on the processing

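No paired analysis was possible because the design holds 1 library for each condition, and no replicate could be left out. The share of Kc control members missing after CP190 RNAi was 19.4% with a score of 100 or more in the control list, 24.4% with lists of equal length and 41.3% on Het sequences only. It stayed within its interval under the other 6 settings (33.6 to 38.4%). The share of CP190 RNAi members without a control peak was 11.2% with a score of 100 or more in that list, 22.4% with that score in both lists and 39.3% with lists of equal length. With lists of equal length the arm share was 38.5%, near that of the members. The share of Kc control members with an S2 peak was 6.26% when S2 had to cover 50% of the peak, 5.15% with reciprocal overlap of 50%, 52.2% on Het only and 4.24% on U and Uextra only. For CP190 RNAi members these were 5.00%, 4.05%, 48.6% and 4.44%, with 13.1% at a score of 100 or more in that list and 12.1% with it in both. The S2 peaks on Uextra are narrow, so rules that ask for coverage of the Kc peak lower these shares by construction. The share of S2 members with a Kc control peak was 29.5% with reciprocal overlap, 71.2% at a score of 100 or more in the S2 list and 81.0% on U and Uextra only. For S2 peaks on the arms it was 54.8% with reciprocal overlap and 73.3% at that score. The share of the list made up by members was 6.53% of covered bases after CP190 RNAi, and 5.92% of covered bases and 7.95% at equal list length after GFP RNAi in Kc cells. Weighting the arms to the members' score and width moved the missing share on the arms to 69.8% and the S2-shared share to 67.9%.

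Alternatives for the difference between members and arms, and for the fate of S2-shared peaks, were chosen after seeing the data. The missing share of Kc control peaks was lower on the members than on the arms under all 7 settings tried. The difference (members minus arms) was -20.5 points with a score of 100 or more in the control list, -17.5 points with it in both lists and -16.3 points with lists of equal length, against -8.28 points as deposited. The difference in CP190 RNAi peaks without a control peak was 0.748 points and changed sign, to -1.69 points with reciprocal overlap, -4.80 points with a score of 100 or more in that list and -13.3 points with it in both. The cause was not tested. The difference in S2-shared Kc control peaks was -58.1 points for peaks within 1000 bp and -63.5 points when only control peaks that scored 100 or higher were counted, against -55.4 points as deposited. With overlap of 50% of the counted peak, or reciprocally, 4 of the 17 unplaced S2-shared peaks still counted as shared, and none was missing.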
